A study of Mus musculus with 3 samples.

Results

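Glutathione peroxidases (Gpx) and peroxiredoxins (Prdx) are the enzymes that remove hydrogen peroxide and lipid peroxides from cells. Their genes were compared between the cells of the ureteric tree, the branching epithelium that gives rise to the collecting ducts, and the other cells of the embryonic mouse kidney. The members are the array probes whose platform gene symbol is Gpx or Prdx followed only by a number and that had a value on all 3 arrays. This gave 8 genes with 1 probe each, 4 of each family, among 3915 named genes and 4399 probes with values on all 3 arrays. The array carried 12 probes with such symbols, and the other 4, for Gpx1, Gpx2, Gpx5 and Gpx6, had no value on any array. The peroxiredoxin probes were those of Prdx1 to Prdx4, and no probe carried the symbol Prdx5 or Prdx6. A probe for the pseudogene Prdx6-ps2 was outside the symbol rule and also had no value.

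Each array carried 2 RNA preparations from kidneys of HoxB7-GFP transgenic mice at 15.5 days post coitum, with males and females pooled and no disease. GFP+ cells, marked by green fluorescent protein under the HoxB7 promoter, and GFP- cells, which are all remaining cell types together, had been separated by flow sorting. The same transgene is carried by the whole kidney, so both fractions share it and differ in whether they express it. Whether the arrays hold independent pools of kidneys is not stated, so each p-value reflects variation among 3 arrays that could be purely technical. All values are log2 ratios, most likely of GFP+ over GFP-, since the order of the channels and the titles give that direction but the dyes are not stated. A value of 0 means equal signal in both fractions, and a negative value means more signal in GFP- cells.

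The families reach the same substrates by different chemistry. A typical glutathione peroxidase takes its electrons from glutathione, and several members carry selenocysteine, the selenium form of cysteine, at the active site. A peroxiredoxin uses a cysteine that peroxide oxidises directly and that thioredoxin then reduces. Each compartment of the cell has its own members, among them Prdx1 and Prdx2 in the cytosol, Prdx3 in mitochondria, and Prdx4, Gpx7 and Gpx8 in the secretory pathway. In the adult kidney, Gpx3 is made by proximal tubule cells and secreted into the plasma.

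None of the 8 genes passed the test across all probes, which could miss differences of the size seen here. On simulated sets of 3 independent arrays it found 1.5% of changes of 0.5 log2 units and 41.7% of changes of 1. Each set had 200 changed probes of 4399 and gave a probe the same spread on every array. The rates depend on that setting and need not hold for these arrays. Limma, a linear model that shares the variance between probes, called 0 of 8 higher and 0 of 8 lower in GFP+ cells at a Benjamini-Hochberg adjusted p below 0.05, against 1.32% of all tested probes called higher and 1.55% called lower. The adjusted p of the members lay between 0.179 and 0.984. At an unadjusted p below 0.05, 2 of 8 members were lower, Gpx7 and Prdx3, where 6.09% of all probes were, and 0 of 8 were higher, where 8.3% were. An ordinary one-sample statistic, which shares no variance between probes, gave 2 of 8 lower at an unadjusted p below 0.05, Gpx3 and Prdx3, and 0 of 8 higher, where 4.84% and 7.25% of all probes were; after adjustment it called no member. The mean log2 ratios of the members ran from -0.77 for Gpx7 to 0.32 for Gpx4 with a median of -0.15, while the median of all tested probes was 0.044 and their middle 50% lay between -0.16 and 0.23.

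**Figure D1:**
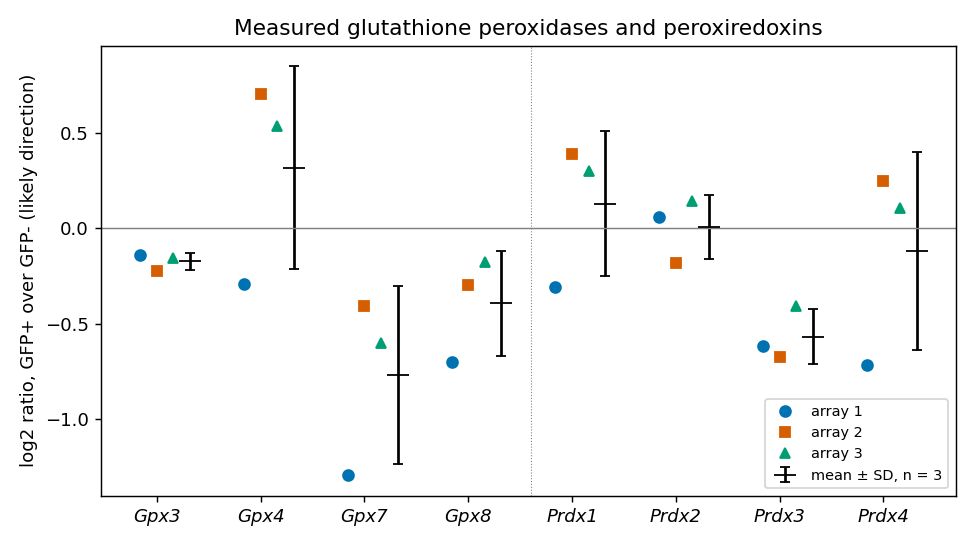
Log2 ratio of GFP+ over GFP- (likely direction) for each measured member on array 1 (circles), array 2 (squares) and array 3 (triangles), with the mean ± SD over 3 arrays at the right of each gene; glutathione peroxidases are left of the dotted line and peroxiredoxins right of it. Gpx3, Gpx7, Gpx8 and Prdx3 lie below 0 on every array, and array 1 is the lowest point for Gpx4, Gpx7, Gpx8, Prdx1 and Prdx4.

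Promoter sequences are given for Gpx7 and Prdx3, which had the lowest means, and for Prdx1. The last was chosen for its sequence, as the only measured member with a match to an antioxidant response element. That element is the site through which the transcription factor NRF2 acts on many antioxidant genes. RefSeq windows of build GRCm38.p6, from 250 bases before to 50 after a start site, were matched by symbol for all 8 genes (11 windows, 4 of them for Gpx4). Capitals mark matches, on either strand, to TGACNNNGC, the core of the antioxidant response element, or to GGGCGG, the GC box bound by Sp1 and related factors. The windows are chr4:108406664-108406963 on the minus strand for Gpx7, chr19:60874489-60874788 on the minus strand for Prdx3 and chr4:116685349-116685648 on the plus strand for Prdx1, each printed 5′ to 3′ in the direction of the gene.
Gpx7: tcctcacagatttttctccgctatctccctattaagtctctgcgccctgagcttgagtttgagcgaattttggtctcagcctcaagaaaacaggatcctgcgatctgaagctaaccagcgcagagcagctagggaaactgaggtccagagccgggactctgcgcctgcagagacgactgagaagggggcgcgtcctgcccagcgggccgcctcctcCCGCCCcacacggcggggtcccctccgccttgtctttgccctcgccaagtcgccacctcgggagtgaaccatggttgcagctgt
Prdx3: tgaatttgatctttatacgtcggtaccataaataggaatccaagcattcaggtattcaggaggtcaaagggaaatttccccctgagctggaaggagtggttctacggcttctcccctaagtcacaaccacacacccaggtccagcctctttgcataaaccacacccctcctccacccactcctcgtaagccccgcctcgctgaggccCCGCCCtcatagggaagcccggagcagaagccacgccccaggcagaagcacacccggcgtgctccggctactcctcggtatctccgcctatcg
Prdx1: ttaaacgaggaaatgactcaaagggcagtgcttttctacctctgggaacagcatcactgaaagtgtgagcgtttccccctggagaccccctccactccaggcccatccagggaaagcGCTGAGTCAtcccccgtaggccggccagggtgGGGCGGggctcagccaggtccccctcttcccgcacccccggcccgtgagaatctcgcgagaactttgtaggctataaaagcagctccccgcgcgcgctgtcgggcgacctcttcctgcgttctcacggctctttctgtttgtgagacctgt

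The Prdx1 window held the element as TGACTCAGC on the minus strand, covering 9 bases from position 118 of the window, counted from 1 at its 5′ end. Part of this match is also a match to TGANTCA, the AP-1 site, and the same window held another AP-1 match from position 14. Over all 32851 RefSeq windows of this length, 12.4% held TGACNNNGC, 7.81% held TGANTCA and 35.7% held GGGCGG. Of the 11 windows of the members, 1 held TGACNNNGC, 1 held TGANTCA and 9 held GGGCGG. Counted by gene, 1 of 8 had TGACNNNGC and 7 of 8 had GGGCGG in at least 1 window, Gpx8 being the exception. The shares over all windows are not shares of genes, and no share by gene was computed. Overlapping windows of Gpx4 held the same GC boxes, which were counted in each, so 9 of 11 is not a count of separate sites. These are matches of letters in a window and were not tested for binding, and the motifs were chosen after the values were seen.

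Gpx7 and Gpx8 are glutathione peroxidases of the endoplasmic reticulum that carry cysteine in place of selenocysteine and are known for using peroxide to assist the formation of disulfide bonds in new proteins. Gpx7 had log2 ratios of -1.30, -0.41 and -0.60 on arrays 1, 2 and 3. All 3 values were below 0, and array 1 stood apart as the lowest. Its mean of -0.77 ± 0.47 (SD, n = 3 arrays) corresponds to a 1.70-fold higher signal in GFP- cells, with a 95% interval of 1.18 to 2.46-fold from limma, not corrected for the number of probes. The adjusted p was 0.184 by limma, so the difference did not pass, although only 2.98% of all probes had a lower mean. Gpx8 had -0.70, -0.30 and -0.18, also below 0 on every array with array 1 the lowest. Its mean was -0.39 ± 0.28, or 1.31-fold toward GFP- cells with an interval from 0.974 to 1.77-fold, and limma gave an adjusted p of 0.395. Without array 1 the means were -0.50 for Gpx7 and -0.24 for Gpx8.

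The selenocysteine members Gpx3 and Gpx4 differed in how far their arrays spread. Gpx3, the secreted plasma enzyme, had -0.14, -0.22 and -0.15, the tightest agreement of the 8 genes. Its mean of -0.17 ± 0.04 was close to the lower quartile of all probes, and its SD was smaller than that of all but 2.3% of them. The limma adjusted p was 0.652. Gpx4, which reduces lipid peroxides within membranes and is known for protecting cells from ferroptosis, had -0.29, 0.70 and 0.54. Array 1 lay below 0 and the other arrays above it, so the mean of 0.32 ± 0.53 was smaller than its SD (limma adjusted p = 0.587). That mean was 0.62 without array 1, 0.12 without array 2 and 0.21 without array 3.

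Among the peroxiredoxins, Prdx3 gave the lowest values. This mitochondrial enzyme, which is reduced by the mitochondrial thioredoxin, had -0.62, -0.68 and -0.41. The 3 arrays lay close together and all below 0, unlike those of Gpx7, where array 1 was far from the others. Its mean was -0.57 ± 0.14, a 1.48-fold higher signal in GFP- cells with an interval of 1.13 to 1.94-fold before correction for the number of probes. By limma the adjusted p was 0.179, the smallest of the 8 members, and 5.46% of all probes had a lower mean.

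The cytosolic enzymes Prdx1 and Prdx2 lay near 0. Prdx1, a peroxidase that is abundant in most cells, had -0.31, 0.39 and 0.30, with array 1 on the other side of 0 from arrays 2 and 3, and a mean of 0.13 ± 0.38 (limma adjusted p = 0.787). Leaving out array 2 took this mean to -0.0018 and leaving out array 3 to 0.043, while without array 1 it was 0.35. Prdx2, known as a major protein of red blood cells, had 0.061, -0.18 and 0.15. Its mean of 0.0089 ± 0.17 was the closest to 0 of the 8 genes, and the interval of the ratio of GFP+ over GFP- ran from 0.766 to 1.32. That mean was negative after centring the arrays on their medians (-0.042) and without array 1 (-0.017) or array 3 (-0.059), so it has no settled sign. Prdx4, the peroxiredoxin of the endoplasmic reticulum, had -0.72, 0.25 and 0.11 with a mean of -0.12 ± 0.52, and without array 1 its mean was 0.18. Limma adjusted p was 0.984 for Prdx2 and 0.833 for Prdx4.

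For 7 of 8 members the 95% interval of the mean lay within a 2-fold difference either way, and Gpx7, whose interval reached 2.46-fold, was the exception. The share of all tested probes with such an interval was not computed, so this count shows nothing particular to these genes. The smallest mean that passed for any probe was 0.89 in size, above the means of all 8. These intervals treat the arrays as independent, which is not stated. Over all tested probes arrays 2 and 3 had a correlation of 0.879, and array 1 had 0.0765 and 0.274 with them. A correlation over probes cannot tell whether the arrays are independent.

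**Figure D2:**
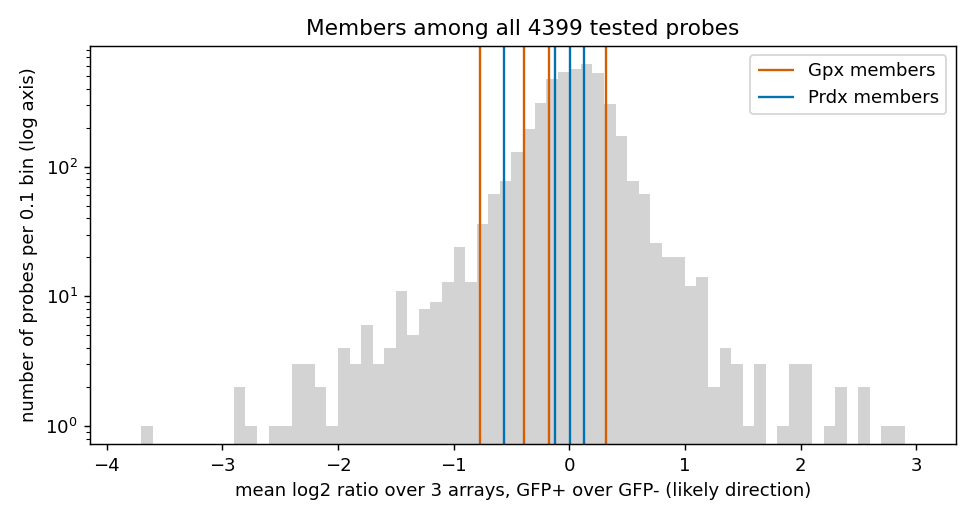
Distribution of the mean log2 ratio over 3 arrays for all 4399 tested probes (grey bars, bins of 0.1, count on a log axis), with vertical lines at the 4 glutathione peroxidases (orange) and the 4 peroxiredoxins (blue). The members lie between -0.77 and 0.32, and Gpx7 and Prdx3 are farthest to the left, with 2.98% and 5.46% of probes at lower means.

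Ordered from the lowest mean, the genes were Gpx7, Prdx3, Gpx8, Gpx3, Prdx4, Prdx2, Prdx1 and Gpx4. Each mean lay within the larger SD of the pair from its neighbour in this order. Members of either family stood on both sides of 0. Below 0 on all 3 arrays were 4 of 8 members, Gpx3, Gpx7, Gpx8 and Prdx3, where 14.8% of all probes were, and above 0 on all 3 arrays were 0 of 8, where 21.2% were. The count of 4 follows from 3 of 4 glutathione peroxidases and 1 of 4 peroxiredoxins.

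The families were compared by their averages. On array 1 the mean log2 ratio was -0.61 for the 4 glutathione peroxidases and -0.39 for the 4 peroxiredoxins. Array 2 gave -0.056 and -0.054, and array 3 gave -0.098 and 0.037. The peroxiredoxin mean exceeded the glutathione peroxidase mean by 0.21, 0.0019 and 0.14 on arrays 1, 2 and 3, an average of 0.12 ± 0.11 (SD, n = 3 arrays). The gap was positive on all 3 arrays, and nearly 0 on array 2. Within the families, single member means ranged over 1.09 log2 units among the glutathione peroxidases (SD between members 0.45) and over 0.70 among the peroxiredoxins (0.30). No p is given for the gap, which describes chosen genes, and whether the families differ was not tested. The family means were -0.25 ± 0.31 and -0.14 ± 0.23 over the arrays, and without array 1 they were -0.077 and -0.0084, while with array weights, which gave array 1 the least weight, the peroxiredoxin mean was 0.0089.

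Array 1 differed from the other arrays for most members. On array 1, 7 of 8 members were below 0, against 5 on array 2 and 4 on array 3, while 53.7%, 41.4% and 40.1% of all tested probes were below 0 on these arrays. Gpx4, Prdx1 and Prdx4 were below 0 on array 1 and above 0 on arrays 2 and 3, a pattern held by 31.3% of all tested probes, so 3 of 8 is near the background. The difference of array 1 from the mean of arrays 2 and 3 was -0.91 for Gpx4, -0.89 for Prdx4, -0.79 for Gpx7, -0.65 for Prdx1 and -0.47 for Gpx8. It was small for Prdx3 (-0.077), Gpx3 (0.046) and Prdx2 (0.078), and its median was -0.56 over the members and -0.25 over all probes.

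**Figure D3:**
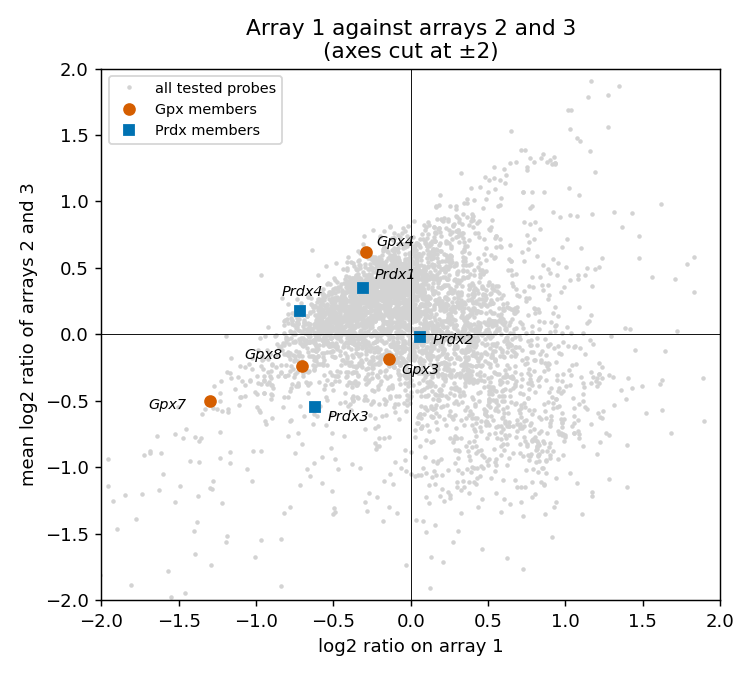
Log2 ratio on array 1 (horizontal axis) against the mean log2 ratio of arrays 2 and 3 (vertical axis) for all tested probes (grey; axes end at -2 and 2), with glutathione peroxidases as orange circles and peroxiredoxins as blue squares. Gpx4, Prdx1 and Prdx4 lie left of 0 and above 0, while Gpx3, Gpx7, Gpx8 and Prdx3 lie where both values are negative.

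With array 1 left out, limma called Gpx4 (mean 0.62, adjusted p = 0.00971) and Prdx1 (0.35, 0.0325) higher and Gpx7 (-0.50, 0.0166) and Prdx3 (-0.54, 0.0169) lower in GFP+ cells. Under that setting 27.8% of all probes were called higher and 18.4% lower, so 2 of 8 in each direction is near the background. With array weights the calls were 2 of 8 higher, Gpx4 and Prdx1, and 3 of 8 lower, Gpx7, Gpx8 and Prdx3, where 36.3% and 23.1% of all probes were called. The fit without array 1 rests on arrays 2 and 3, whose ratios were closely related, and the weighted fit mainly on array 3, which had 77% of the weight against 20.9% for array 2 and 2.14% for array 1.

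Genes of the thioredoxin and glutathione pathways did not pass the test either. In the thioredoxin system 10 of 20 listed genes were measured, with 0 called in either direction and a median of -0.031, against 0.044 for all probes. Its largest means were those of the mitochondrial glutaredoxin Glrx2 (0.54 ± 0.37), the sestrin Sesn3 (-0.49 ± 0.57), the thioredoxin relative nucleoredoxin, Nxn (-0.48 ± 0.72), and the thioredoxin-like splicing protein Txnl4a (0.44 ± 0.24), with limma adjusted p between 0.287 and 0.506. In the list of glutathione synthesis and reduction, 3 of 19 genes were measured, Glo1 (0.33 ± 0.38), Hagh (0.27 ± 0.07) and Esd (0.015 ± 0.40), and 0 were called. Glo1 and Hagh are the glyoxalases, which use glutathione to clear methylglyoxal, and Esd hydrolyses S-formylglutathione. None of these 3 makes or reduces glutathione. The listed genes that do so, such as Gclc, Gss and Gsr, lacked a probe or lacked a value on at least 1 array. Of the 19 listed genes, 15 were on the array.

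Other antioxidant enzymes gave 0 calls among 12 measured of 20 listed, with a median of -0.18. The ferritin light chain Ftl1, which stores iron, had the lowest mean (-0.68 ± 0.39), followed by the heme oxygenase Hmox2 (-0.53 ± 0.83). Metallothionein Mt1, a metal-binding protein, had the highest (0.43 ± 0.03, with 0.41, 0.42 and 0.47 on the 3 arrays), and Msrb3, which repairs oxidised methionine, had -0.40 ± 0.22. For these 4 genes the limma adjusted p lay between 0.197 and 0.508. Mt1 varied less between arrays than any of the 8 peroxidase genes.

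Selenoproteins outside the glutathione peroxidases, with the genes for making selenocysteine, had 6 of 23 measured, 0 called and a median of 0.048. The members of largest mean were the reticulum protein Selenok (0.30 ± 0.06), Selenom (-0.15 ± 0.10), the factor Trnau1ap of selenocysteine transfer RNA (0.14 ± 0.06) and the elongation factor Eefsec (0.10 ± 0.30). The oxidant source list had 4 of 18 measured, all with a negative mean and 0 called, at a median of -0.32. Rac2, the GTPase of the phagocyte oxidase, had -1.01 ± 0.43 (limma adjusted p = 0.0739), Ncf4, a subunit of that oxidase, -0.47 ± 0.21, the superoxide dismutase Sod2 of mitochondria -0.17 ± 0.26 and Maoa, a monoamine oxidase that releases peroxide, -0.16 ± 0.36. In the list of NRF2 regulation, 5 of 16 were measured and 0 were called, at a median of -0.044. Nfe2l2, the gene of NRF2 itself, had 0.65, -0.75 and 0.12 on arrays 1, 2 and 3. Its mean was 0.0073 ± 0.71 (limma adjusted p = 0.992), so it had no settled sign. The related factor Nfe2l1 had -0.79 ± 0.27 (limma adjusted p = 0.0941), the small Maf partner Mafk 0.21 ± 0.20, the adaptor Sqstm1 -0.082 ± 0.37 and the thioredoxin reductase Txnrd1, also in the thioredoxin list, -0.044 ± 0.31. At an unadjusted p below 0.05 by limma, Glrx2, Txnl4a and Mt1 were higher and Ftl1, Rac2, Ncf4 and Nfe2l1 lower, where 8.3% and 6.09% of all probes were, and 0 genes were in the glutathione and selenoprotein lists.

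**Figure D4:**
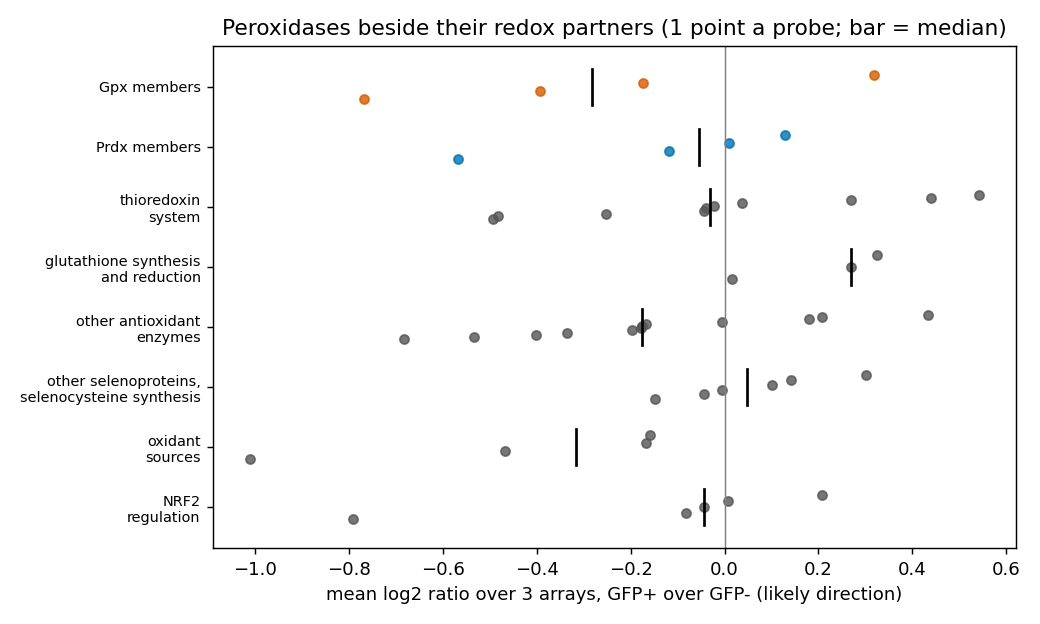
Mean log2 ratio over 3 arrays (horizontal axis) of each measured probe in the glutathione peroxidase and peroxiredoxin families and in 6 lists of redox genes, 1 point a probe, with a black bar at each median. The glutathione peroxidase median is -0.28, the peroxiredoxin median is -0.055, and Rac2 among the oxidant sources has the lowest value at -1.01.

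Markers of several cell types differed between the fractions by more than any peroxidase. The marker lists were chosen with earlier results of these data known, so the counts called are partly set by that choice. Of all tested probes, 1.32% were called higher and 1.55% lower. Of 7 measured ureteric epithelium markers of 15 listed, 6 were called higher, led by Cldn7 (2.36 ± 0.27) and Gata3 (2.35 ± 0.39). Of 7 measured macrophage and leukocyte markers of 14 listed, 6 were called lower, led by S100a9 (-3.66 ± 0.44) and Cd52 (-2.84 ± 0.28). Cap mesenchyme had 3 called lower of 5 measured, with Crym at -1.72 ± 0.59 and Wt1 at -1.42 ± 0.37, and stroma had 3 of 4, with Mgp at -2.46 ± 0.62 and Dcn at -1.61 ± 0.26. Of 4 measured erythroid markers 2 were called lower, Alas2 (-2.15 ± 0.07) and Hba-x (-1.88 ± 0.17 and -2.57 ± 0.61 on its 2 probes). The other measured erythroid genes were not called: Hba-a1 had -0.33 ± 0.34, and Tfrc, which other dividing cells also express, had 0.58 ± 0.16 and 0.17 ± 0.37 on its 2 probes. Proximal tubule and endothelium had 0 called of 5 and 6 measured, with largest means for Ttr (-0.74 ± 0.45) and Fxyd2 (0.30 ± 0.56), and for Ramp2 (-0.96 ± 0.94) and Emcn (-0.48 ± 0.37). Since GFP- cells are a mixture, fewer cells of a type and less RNA per cell cannot be told apart in any of these ratios, and the part of these cell types in the negative values of Gpx7, Gpx8 and Prdx3 was not tested.

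By root mean square distance over the 3 arrays, the genes whose ratios lay closest to those of Gpx7 among 3986 other single-symbol probes were Zeb1 (distance 0.054), Ttr (0.064), Nin (0.084), Ripk3 (0.091) and Mest (0.092). Zeb1, a transcription factor of mesenchymal cells, had -1.33, -0.43 and -0.69. With 3 arrays many probes can lie this close, and the distance is a description only.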

How the data were processed

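RNA of both fractions was amplified, labelled through amino allyl groups and hybridised together on 3 Mouse Compugen oligonucleotide arrays, without a dye swap or a common reference, per the labels. The authors read images with Imagene 5.5 and fitted a Lowess curve of log ratio on log intensity (20% of points per local fit), raising control values below 10 to 10, per the labels. The deposited values are log2 ratios: 2 raised to the value was a whole number of thousandths, within 0.01 of a thousandth, for at least 99.9% of values on each array, against at most 2.75% for base e. The titles call them filtered; no source used here gives the rule. Intensities were not analysed, so the signal behind each ratio is unknown here, and precision is limited by the small number of arrays. As no dyes were swapped, gene-specific dye bias and a difference between the cells cannot be told apart.

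Of 21819 features that name a gene or clone, 4399 (20.2%) had values on all 3 arrays, and 15293 had none. Each array gave 5179, 4980 and 6187 such values. The test of each mean log2 ratio against 0 used lmFit and eBayes of limma 3.58.1, run in R 4.3.3 (intercept only, two-sided, Benjamini-Hochberg over all 4399 probes, adjusted p below 0.05), after a check of the test on simulated data. Symbols of members are those of the platform annotation. For lists, symbols were updated through gene identifiers to the RefSeq table of GRCm38.p6, which matched 16566 of 17408 annotated probes. Members and lists were chosen with earlier results of these data known. All members were named, with the genes of each redox list that passed or otherwise the 4 of largest absolute mean, the 2 of largest absolute mean in each marker list, and the 5 genes closest to the member of largest absolute mean. Nfe2l2 was named in addition, as the gene of NRF2. Array weights were estimated gene by gene, since the default estimate did not converge.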

Additional observations from a re-analysis of the deposited data

How the results depend on the processing

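In all, 11 other ways of processing were tried. Gpx3, Gpx4, Gpx7, Gpx8 and Prdx3 kept the sign of their mean under each of the 9 that refit single members. Gpx3, Gpx7, Gpx8 and Prdx3 were below 0 on all 3 arrays, so leaving out, averaging or weighting arrays could not change their sign. The ordinary one-sample statistic and the filter of values on at least 2 arrays reuse the same means. For these genes only centring and quantile normalization could have changed the sign. Leaving out 1 array in turn gave Prdx4 means from -0.30 (without array 2) to 0.18 (without array 1), Prdx1 means from -0.0018 (without array 2) to 0.35 (without array 1), and Prdx2 means from -0.059 (without array 3) to 0.10 (without array 2), with -0.017 without array 1. Prdx4 was 0.12 with array weights, and Prdx2 was -0.042 after centring. The same left-out fits gave 0 to 2 member probes higher and 0 to 2 lower, with the calls coming without array 1, and 23 to 1225 of all probes higher and 60 to 810 lower. Array weights gave 2 members higher and 3 lower, with 1597 and 1015 of all probes. The ordinary one-sample statistic called 1 probe higher and 0 lower, and with arrays 2 and 3 averaged 32 were higher. No member was called under those settings, nor after centring, after quantile normalization, with values on at least 2 arrays, by gene or by updated symbol. The gap between the family means lay between 0.069 and 0.17 over the alternatives that give it. Centring, values on at least 2 arrays, genes in place of probes and updated symbols leave it at 0.12 by construction, so they do not test it. On single arrays the gap ran from 0.0019 on array 2 to 0.21 on array 1. The cause of the shift without array 1 was not tested. Each log2 ratio is already a paired difference of both fractions on 1 array, so the test against 0 is the paired analysis, and there is no further group to block on.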
